A study of Ovis aries with 16 samples.

Results

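MIR150 and MIR16B are 2 of the 105 microRNAs (miRNAs) measured by small RNA sequencing in liver and muscle of 8 ewes, and both were taken by name. The 4 groups were liver of ewes treated with testosterone before birth (prenatal T), liver of control ewes, muscle of prenatal T ewes and muscle of control ewes, with 4 libraries each. All animals were female, and liver and muscle libraries with the same ewe number came from the same animal. Prenatal T ewes were 48, 185, 233 and 255, and control ewes were 98, 131, 132 and 201; the labels give no breed, age, muscle name, or dose and timing of testosterone.

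A miRNA is a short RNA that guides the Argonaute protein to partly complementary sites in messenger RNAs and lowers their translation or stability. MIR150 (miR-150) is abundant in mature lymphocytes, and in mouse lymphocytes it represses the transcription factor MYB. MIR16B belongs to the miR-15/16 family, which is made in most cell types, is abundant in red blood cells, and represses cell cycle and survival genes such as cyclins and BCL2. In whole tissue both can come from blood left in the sample, from resident immune cells or from the parenchyma itself. Fewer cells of a type and less RNA per cell cannot be told apart in such bulk samples.

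The name "blood cell miRNAs" could not be checked against a panel of blood markers in these libraries. Of 10 erythroid miRNA names looked for, MIR16B was the only 1 among the 105 miRNAs, and the red cell miRNAs MIR451, MIR144 and MIR486 were not analysed here. Of 10 lymphoid and myeloid names, 2 were present: MIR150 itself and MIR29B, which stood in the data as MIR29B-1 and MIR29B-2 with identical values. MIR16B was also the only 1 of 8 miR-15/16 family names present. How reads that match more than 1 miR-16 locus were assigned is not stated, so its level may hold reads of near-identical copies.

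Libraries held 206304 to 755344 miRNA reads in liver and 113522 to 885316 in muscle. The tissue labels fitted the defining miRNAs: MIR133, a muscle miRNA, took 0.0290% to 0.227% of miRNA reads in liver and 37.2% to 56.4% in muscle, whereas the hepatocyte miRNA MIR194 took 2.04% to 2.94% in liver and 0.00936% to 0.0216% in muscle. The library numbers in the labels fell in 2 separate ranges, a lower and a higher. Livers of ewes 48 and 98 had numbers in the lower range and the other 6 livers in the higher, while all muscles were in the lower except that of ewe 255. Range and tissue were therefore largely, but not fully, aligned.

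Both miRNAs were well covered, so counting error was small beside the spread between ewes. MIR150 had 282 to 770 reads per liver library and 603 to 3447 per muscle library, and MIR16B had 1253 to 2477 and 538 to 2331. The counting SD this implies was 3.60% to 5.95% of the MIR150 level in liver and 1.70% to 4.07% in muscle. The coefficient of variation between ewes of a group was 12.5% to 34.7% over both miRNAs and the 4 groups. Among all 105 miRNAs ordered from high to low, MIR150 ranked 35 to 43 in liver and 22 to 30 in muscle, and MIR16B ranked 28 to 32 and 24 to 31.

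The first comparison asked whether prenatal T changed either miRNA within a tissue. Neither differed beyond the spread between ewes in liver or muscle. The values are the authors' normalised reads, scaled within each tissue, so liver and muscle levels on this scale are not comparable.

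In liver, MIR150 stood at 326, 657, 464 and 501 normalised reads in prenatal T ewes 48, 185, 233 and 255, against 662, 452, 417 and 525 in control ewes 98, 131, 132 and 201. Ewe 48 was the lowest of the 8 and control ewe 98 the highest, with ewe 185 just below, so the groups overlapped over most of their range. The means were 487 ± 136 in prenatal T livers and 514 ± 108 in control livers (SD, n = 4 each). The log2 fold change was −0.10 (SE 0.25, 95% interval −0.63 to 0.44, limma adjusted p = 0.959), which is a 0.934-fold level with an interval of 0.644 to 1.35.

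MIR16B in liver stood at 1115, 2063, 2062 and 1750.2 normalised reads in prenatal T ewes 48, 185, 233 and 255, and at 1779.7, 1852, 2031 and 2410.4 in control ewes 98, 131, 132 and 201. Ewe 48 was again the lowest, control ewe 201 was the highest, and the other 6 livers lay close together. The means were 1747 ± 447 in prenatal T livers and 2018 ± 282 in control livers (SD, n = 4 each). The log2 fold change was −0.24 (SE 0.23, 95% interval −0.73 to 0.25, limma adjusted p = 0.959). Without prenatal T liver 48 it was −0.038.

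In liver 0% of the 81 miRNAs tested passed an adjusted p of 0.05 in limma, and 0 had an unadjusted p below it. The median absolute log2 fold change over these 81 was 0.15. For MIR150 the sign of the liver difference rested on single libraries: without prenatal T liver 48 it was 0.079, without control liver 98 it was 0.030, and in the 6 livers of the higher library number range it was 0.21, none of them past the threshold.

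In muscle, MIR150 stood at 1690.2, 933, 839.7 and 1586 normalised reads in prenatal T ewes 48, 185, 233 and 255, against 1693, 1307, 1296 and 1252 in control ewes 98, 131, 132 and 201. The prenatal T ewes split into a higher pair, 48 and 255, and a lower pair, 233 and 185, on either side of 3 closely grouped controls, while control ewe 98 matched the highest of them. The means were 1262 ± 438 in prenatal T muscle and 1387 ± 205 in control muscle (SD, n = 4 each). The log2 fold change was −0.19 (SE 0.22, 95% interval −0.66 to 0.28, limma adjusted p = 0.778). Without 1 library it ran from −0.36 (without prenatal T muscle 48) to −0.020 (without prenatal T muscle 233), and it was −0.33 in the 7 muscles of the lower library number range; none of these passed.

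MIR16B in muscle stood at 1143, 832, 966 and 1415 normalised reads in prenatal T ewes 48, 185, 233 and 255, and at 1239, 1003, 1183 and 956 in control ewes 98, 131, 132 and 201. The prenatal T ewes held both the highest and the lowest value, and the controls lay inside that range. The means were nearly equal, 1089 ± 252 in prenatal T muscle and 1095 ± 137 in control muscle (SD, n = 4 each). The log2 fold change was −0.028 (SE 0.18, 95% interval −0.41 to 0.36, limma adjusted p = 0.936), and in muscle 0% of 64 miRNAs passed, with 5 at an unadjusted p below 0.05.

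**Figure D1:**
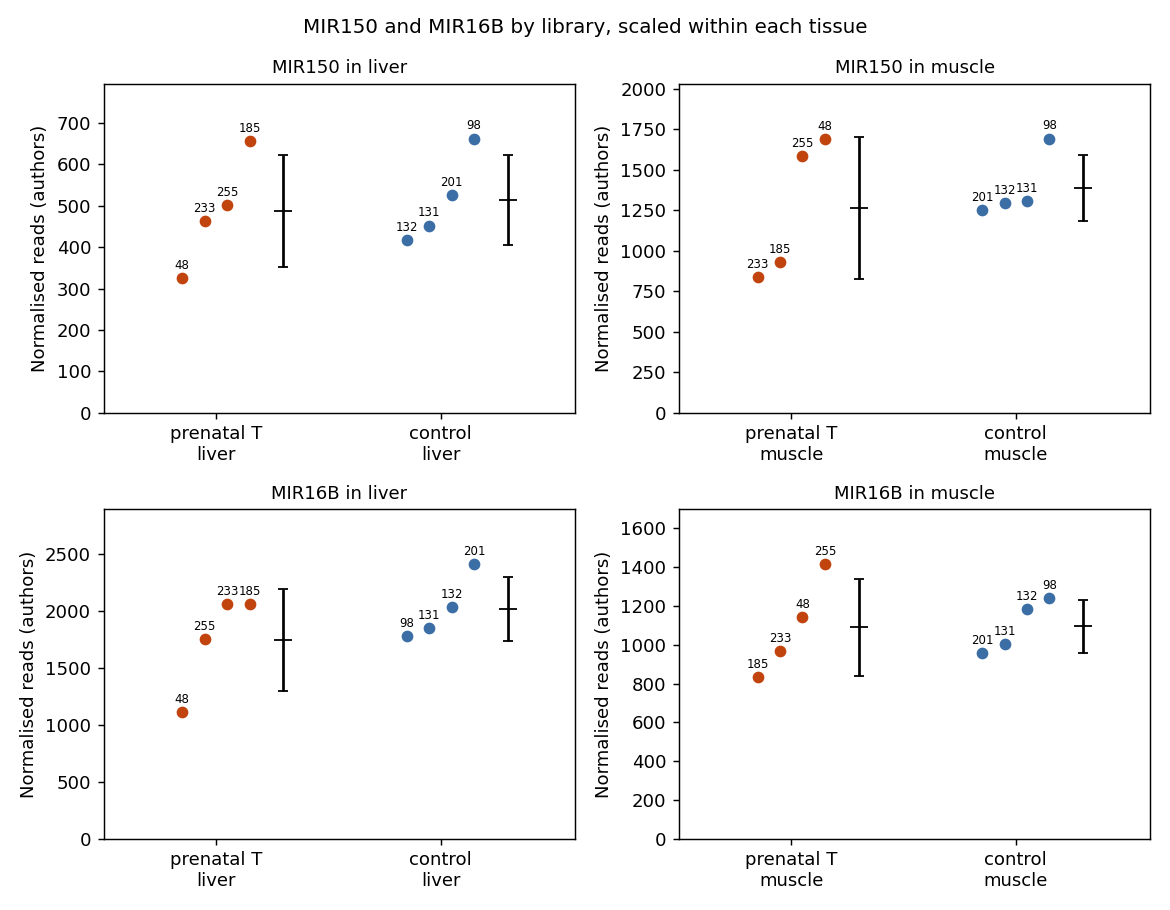
Normalised reads (authors' values, linear axis from 0) of MIR150 and MIR16B in each library, with the mean and SD of each group of 4 beside the points. Prenatal T and control points overlap in all 4 panels, and the prenatal T MIR150 values in muscle separate into a higher and a lower pair.

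The spread between ewes was not unusual for either miRNA. The coefficient of variation of MIR150 was 27.9% in prenatal T livers and 21.1% in control livers, and 34.7% in prenatal T muscle and 14.8% in control muscle. Over all miRNAs tested the median was 21.9% and 21.1% in those liver groups, and 23.2% and 13.6% in those muscle groups. In prenatal T muscle MIR150 was the 19th most variable of 64 miRNAs. MIR16B varied by 25.6% in prenatal T livers and 14.0% in control livers, and by 23.1% in prenatal T muscle and 12.5% in control muscle.

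Whether the prenatal T effect differed between the tissues was tested as an interaction over all 16 libraries. The liver effect minus the muscle effect was 0.15 for MIR150 (SE 0.34, 95% interval −0.55 to 0.85) and −0.15 for MIR16B (SE 0.31, 95% interval −0.79 to 0.48) on the log2 scale, each with a limma adjusted p of 0.863. Of 76 miRNAs tested for this, 0% passed and 3 had an unadjusted p below 0.05. The intervals still allow a difference of over 0.5 log2 units in either direction for MIR150, so equal effects were not shown.

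**Figure D2:**
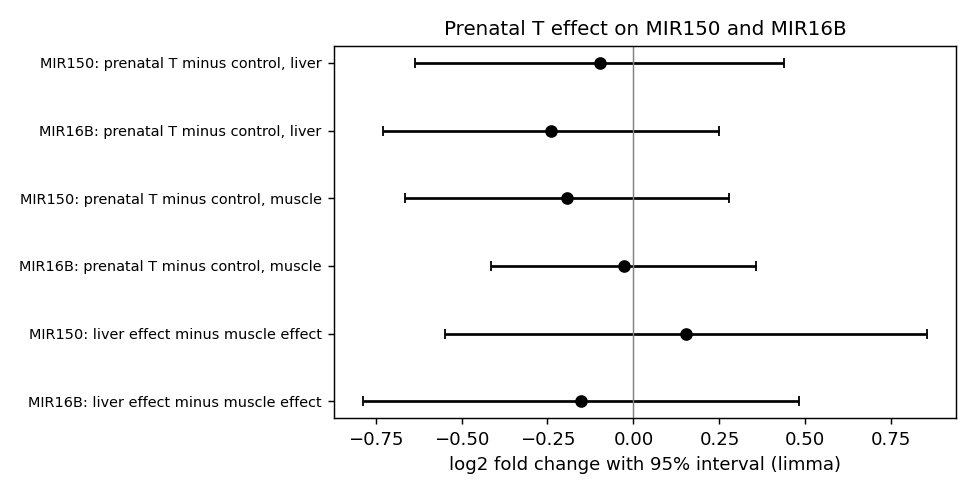
Log2 fold changes of MIR150 and MIR16B for prenatal T minus control in liver and muscle, and for the liver effect minus the muscle effect, with 95% intervals from limma. All 6 intervals include 0.

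The tissues were compared next, after all 16 libraries had been put on a common median-of-ratios scale. The main fit took the libraries as separate samples and did not use the pairing by ewe. MIR150 was lower in liver than in muscle, in both arms and in 8 of 8 ewes. On the common scale it averaged 322 ± 83.0 in prenatal T livers and 1911 ± 636 in prenatal T muscle, and 333 ± 51.7 in control livers and 2155 ± 325 in control muscle (SD, n = 4 each). Every liver value lay below every muscle value. The log2 difference was −2.54 in prenatal T ewes (SE 0.24, limma adjusted p = 1.44e-09), a 0.172-fold level with a 95% interval of 0.122 to 0.242. In control ewes it was −2.69 (SE 0.24, limma adjusted p = 5.6e-10), a 0.155-fold level with an interval of 0.110 to 0.218.

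A tissue difference was the rule among these miRNAs: 68.4% of the 76 tested passed in prenatal T ewes and 68.4% in control ewes. In prenatal T ewes 30 were higher and 22 lower in liver, and in control ewes 31 were higher and 21 lower. Scaled to total miRNA reads, with 84 miRNAs tested, the split moved to 61 higher and 7 lower in prenatal T ewes and to 62 higher and 4 lower in control ewes. MIR150 had the 4th lowest log2 difference of the 76 in both arms, after MIR133, MIR10B and MIR362.

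MIR16B was lower in liver by less, and its direction depended on the scale. On the common scale it averaged 1158 ± 287 in prenatal T livers and 1648 ± 341 in prenatal T muscle, and 1326 ± 268 in control livers and 1704 ± 242 in control muscle (SD, n = 4 each). The log2 difference was −0.53 in prenatal T ewes (SE 0.22, limma adjusted p = 0.0350) and −0.37 in control ewes (SE 0.22, limma adjusted p = 0.128). Scaled to total miRNA reads the direction turned: the difference was 0.74 in prenatal T ewes (limma adjusted p = 0.00836) and 0.99 in control ewes (limma adjusted p = 0.000868).

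MIR133 alone took 37.2% to 56.4% of the muscle miRNA reads, and the cause of this turn was not tested. Scaled to total miRNA reads other than MIR133, MIR16B differed by −0.28 in prenatal T ewes (limma adjusted p = 0.237) and by −0.087 in control ewes (limma adjusted p = 0.723). The median log2 difference between liver and muscle over the 76 miRNAs was 0.25 on the common scale, 1.57 with scaling to total miRNA reads and 0.52 with scaling to total reads other than MIR133. Relative to that median MIR150 stood at −2.87 and MIR16B at −0.70, values that a change of scaling leaves in place by construction, since it multiplies all miRNAs of a library alike.

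The MIR16B call in prenatal T ewes also rested on single libraries. It was lost without prenatal T liver 48 (−0.33, limma adjusted p = 0.160), without prenatal T liver 255 (−0.54, 0.0510), without prenatal T muscle 48 (−0.50, 0.0695) and without prenatal T muscle 255 (−0.40, 0.102). With the library number range as a covariate, a setting chosen after seeing the data, the MIR16B difference was −0.81 in prenatal T ewes (limma adjusted p = 0.000378) and −0.80 in control ewes (0.00123). The MIR150 difference under that covariate was −2.68 in prenatal T ewes and −2.91 in control ewes.

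Within single ewes the liver minus muscle difference of MIR150 on the common log2 scale was −3.53, −1.83, −1.98 and −2.82 in prenatal T ewes 48, 185, 233 and 255, and −2.76, −2.70, −2.89 and −2.42 in control ewes 98, 131, 132 and 201. It was negative in 8 of 8 ewes under each of the 3 scalings, with a mean of −2.62 ± 0.54 on the common scale, −1.31 ± 0.60 with scaling to total miRNA reads and −2.36 ± 0.53 with scaling to the total other than MIR133 (SD, n = 8). Ewes 48, 98 and 255, whose liver and muscle libraries had numbers in the same range, gave 3 of the 4 lowest values on the common scale, but with scaling to total miRNA reads, with or without MIR133, ewe 98 lay above control ewes 131, 132 and 201.

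For MIR16B the differences within ewes on the common scale were −1.20, −0.014, −0.039 and −0.85 in prenatal T ewes 48, 185, 233 and 255. They were −0.89, −0.29, −0.48 and 0.17 in control ewes 98, 131, 132 and 201. The 3 lowest under each of the 3 scalings were ewes 48, 98 and 255, the same 3 with both libraries in 1 range. On the common scale 7 of 8 ewes were lower in liver, scaled to total miRNA reads 8 of 8 were higher in liver, and scaled to the total other than MIR133 5 were lower and 3 higher.

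**Figure D3:**
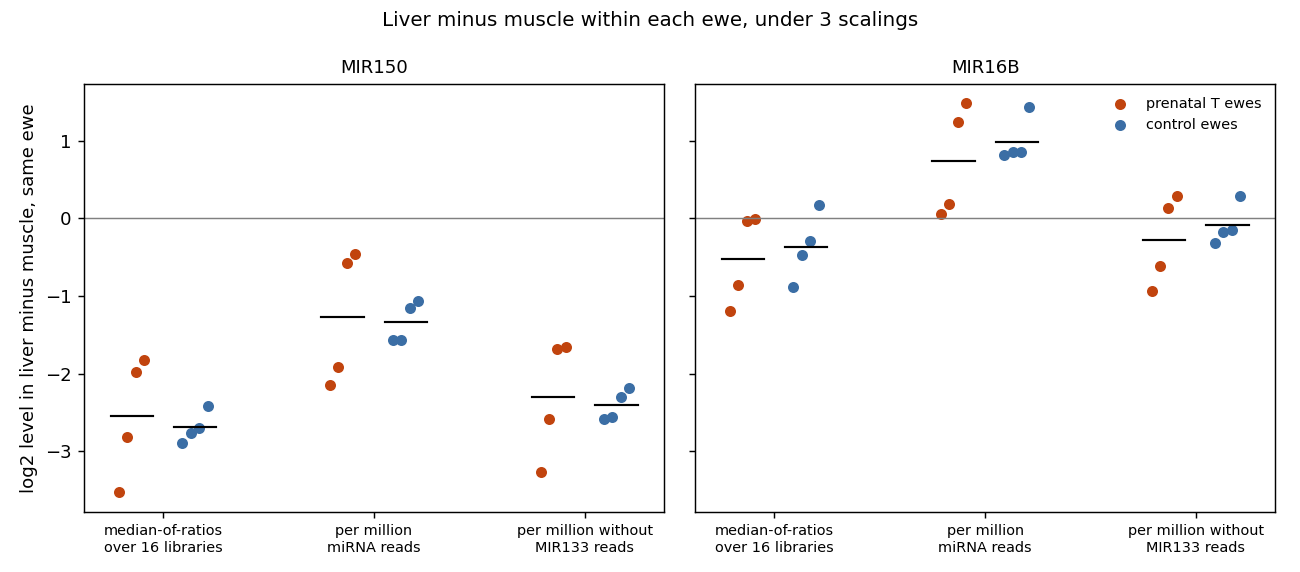
Log2 level in liver minus muscle of the same ewe for MIR150 and MIR16B, under a median-of-ratios scale over 16 libraries, scaled to total miRNA reads, and scaled to total miRNA reads other than MIR133, with a bar at the mean of each 4 ewes. MIR150 points lie below 0 under all 3 scalings, whereas MIR16B points lie mostly below 0 under the first and all above 0 under the second.

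On the common scale the order of the group means was the same for both miRNAs: control muscle, prenatal T muscle, control liver and prenatal T liver, from high to low. Only the step from prenatal T muscle to control liver for MIR150 was free of overlap, with prenatal T muscle at 1242 or above and control liver at 387 or below. Neighbouring MIR16B groups overlapped at every step.

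The MIR133 reads in liver were also set against those in muscle. For this calculation all MIR133 reads in a liver were taken to come from the same ewe's muscle, with other miRNAs in proportion. Muscle RNA would then supply at most 0.877% of the MIR150 reads and 0.239% of the MIR16B reads of a liver, both in ewe 98. Whether the liver libraries held muscle RNA was not tested.

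The number of MIR16B reads per MIR150 read needs no scaling between libraries. It was 3.42, 3.14, 4.44 and 3.49 in livers of prenatal T ewes 48, 185, 233 and 255, and 2.69, 4.10, 4.87 and 4.59 in livers of control ewes 98, 131, 132 and 201. In muscle of the same prenatal T ewes it was 0.676, 0.892, 1.15 and 0.892, and in muscle of the same controls 0.732, 0.768, 0.912 and 0.764. MIR16B thus outnumbered MIR150 in every liver, while MIR150 outnumbered MIR16B in every muscle but that of ewe 233.

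The liver ratio was 4.50 times the muscle ratio of the same ewe (geometric mean, 2.17 on the log2 scale), higher in 8 of 8 ewes. The two-sided exact sign-flip permutation test over ewes gave p = 0.0078, the smallest that 8 ewes allow. In the 3 ewes with both libraries in the same number range the log2 difference was 2.06 (exact p = 0.25, the smallest that 3 ewes allow).

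The ratio did not differ by prenatal T beyond the spread between ewes. It averaged 3.62 ± 0.567 in prenatal T livers and 4.06 ± 0.969 in control livers, a log2 difference of −0.14 (two-sided exact permutation p = 0.486). It averaged 0.903 ± 0.194 in prenatal T muscle and 0.794 ± 0.0806 in control muscle, a log2 difference of 0.17 (two-sided exact permutation p = 0.371). Without 1 library the log2 difference ran from −0.33 (without control liver 98, exact permutation p = 0.114) to −0.042 in liver and from 0.040 to 0.30 in muscle, none past the threshold. With 4 ewes against 4, the smallest p this test can give is 0.0286. The liver minus muscle difference of the log2 ratio was lower by 0.31 in prenatal T ewes than in control ewes (two-sided exact permutation p = 0.171).

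**Figure D4:**
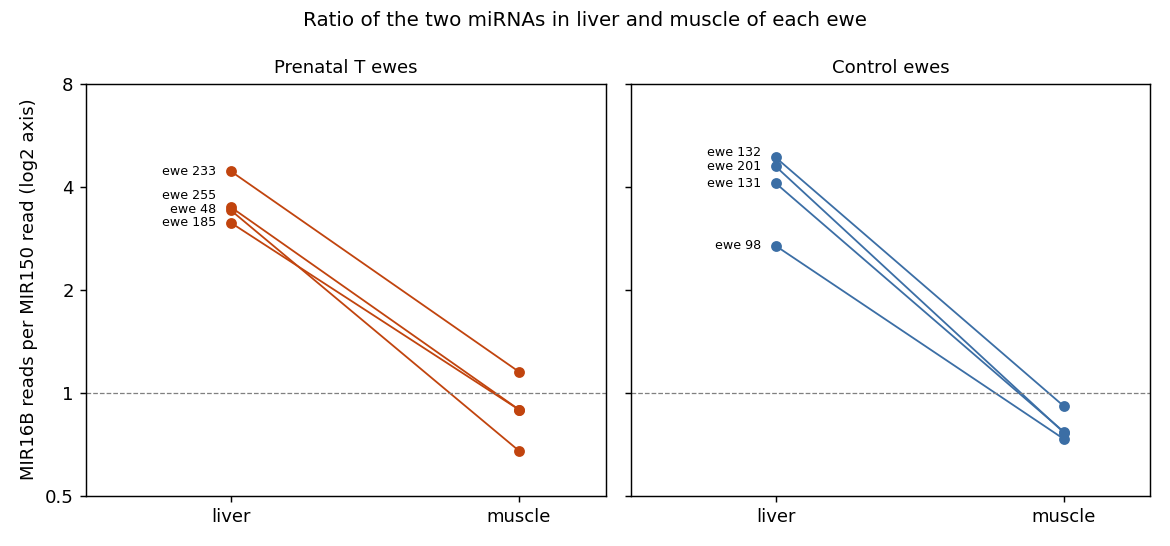
MIR16B reads per MIR150 read in liver and muscle of each ewe, on a log2 axis, with a line joining the 2 tissues of an ewe. Liver values run from 2.69 to 4.87 and muscle values from 0.676 to 1.15, so every line falls from liver to muscle.

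Ewes with more MIR150 tended to have more MIR16B in muscle, but on the authors' scale no relation passed after adjustment. Over the 8 muscles Pearson's r was 0.78 (exact permutation p = 0.0245, Benjamini-Hochberg adjusted p = 0.0980 over 4 relations) and Spearman's rho 0.76 (exact p = 0.0368, adjusted p = 0.0735). Without ewes 185 and 233, the farthest from the MIR150 median, r was 0.67 (exact p = 0.196), and in the 7 muscles of the lower library number range it was 0.79 (exact p = 0.0454, adjusted p = 0.0909 over 2 relations). Scaled to total miRNA reads r was 0.85 (exact adjusted p = 0.0181), on a scale where ewe 255 stood apart with 37.2% of its reads in MIR133, the lowest share of the 8 muscles.

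In liver r was 0.60 (exact permutation p = 0.126, adjusted p = 0.252) and rho 0.38 (exact p = 0.360, adjusted p = 0.480). It rested on ewes 48 and 98: without them r was 0.23 (exact p = 0.65), and the 6 livers left are also those of the higher library number range.

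No relation between an ewe's liver level and its muscle level passed after adjustment. For MIR150 r between the tissues was −0.23 (exact permutation p = 0.577, adjusted p = 0.577) and rho −0.05 (exact p = 0.935). For MIR16B r was −0.42 (exact permutation p = 0.316, adjusted p = 0.421), while rho was −0.79 (exact p = 0.0279, adjusted p = 0.0735). Leaving out the 2 ewes farthest from the liver median gave r = −0.33 for MIR150 (exact p = 0.542) and −0.74 for MIR16B (exact p = 0.104). Scaled to total miRNA reads the MIR16B relation was weaker, with r = −0.16 (exact permutation p = 0.662) and rho −0.12 (exact p = 0.793). For MIR150 r was −0.11 on that scale (exact permutation p = 0.798). These relations were not computed within library number ranges: the 5 ewes with a liver in the higher range and a muscle in the lower are below the 6 samples set as a minimum for a correlation.

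**Figure D5:**
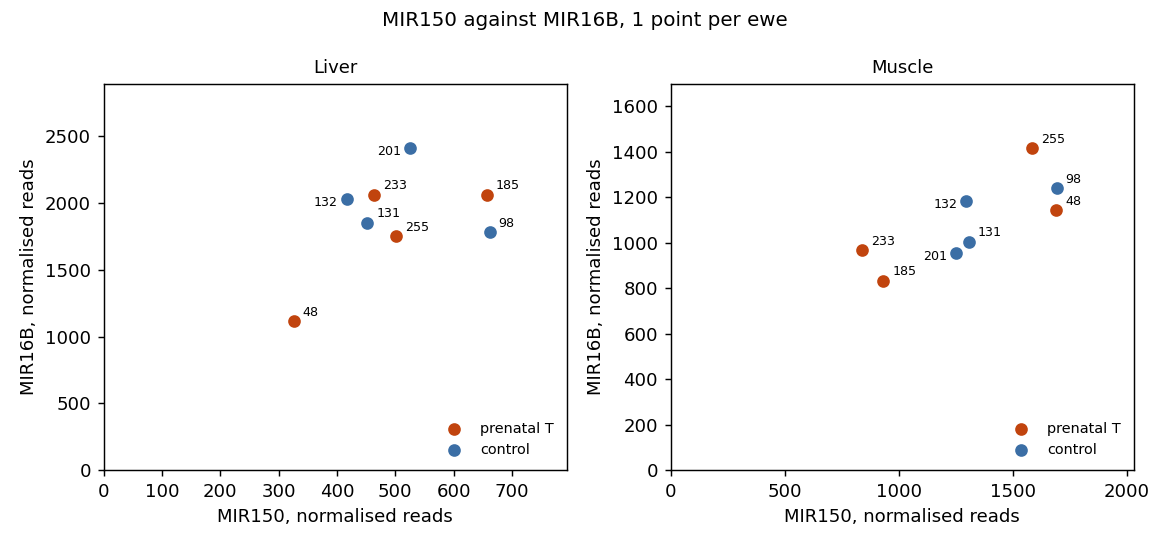
MIR150 against MIR16B in normalised reads, 1 point per ewe, in liver and in muscle, both axes linear from 0. In muscle the points lie along a rising band (r = 0.78), while in liver ewe 48 sits alone at the low end and r is 0.60.

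The miRNAs whose levels moved most like these 2 were found from deviations from the group mean, over 16 libraries and 67 other miRNAs. These correlations are a description, since all miRNAs of a library share its RNA and its scaling. MIR150 was most like MIR25 (r = 0.82; 0.92 in liver and 0.75 in muscle), then MIR16B (r = 0.64) and MIR106B (r = 0.62). MIR16B was most like 3 members of the let-7 family, which represses growth genes such as those of the RAS family: MIRLET7A (r = 0.91), MIRLET7C (r = 0.84) and MIRLET7D (r = 0.83), with MIR150 in 6th place.

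MIR25 and MIR106B come from a cluster inside an intron of MCM7, a gene of the replicative helicase, and belong with the relatives of MIR17, which act on cell cycle genes. Of 11 names of these clusters, 5 were present: MIR17, MIR19B, MIR25, MIR106A and MIR106B. Between prenatal T and control, 0 of the 5 tested in liver passed (median log2 fold change −0.19), and 0 of the 3 tested in muscle passed (median −0.047), as did 0% of all miRNAs tested in either tissue. MIR25 averaged 3736 ± 679 normalised reads in prenatal T livers and 4667 ± 644 in control livers, and 2226 ± 361 in prenatal T muscle and 2216 ± 283 in control muscle (SD, n = 4 each).

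Between the tissues, 4 of the 5 were tested on the common scale, where 68.4% of all miRNAs passed. In prenatal T ewes 2 passed as higher in liver, MIR17 (log2 difference 1.12) and MIR106A (1.99), and 2 as lower, MIR106B (−1.45, limma adjusted p = 1.41e-06) and MIR25 (−0.45, 0.0261). In control ewes MIR106A was higher (1.37, limma adjusted p = 0.0277) and MIR106B lower (−1.25, 1.06e-05). Scaled to total miRNA reads MIR106B did not pass, at −0.19 in prenatal T ewes and 0.11 in control ewes. MIR25 turned on that scale to 0.81 in prenatal T ewes and 1.18 in control ewes. Scaled to the total other than MIR133, MIR106B passed as lower in liver. It stood at −1.21 in prenatal T ewes (limma adjusted p = 9.94e-05) and −0.97 in control ewes (0.00105). MIR25 did not pass there, at −0.21 in prenatal T ewes and 0.11 in control ewes. In prenatal T ewes MIR17 and MIR106A passed as higher in liver under all 3 scalings, and so did MIR106A in control ewes. MIR106A was close to the floor in muscle, at 2.10 ± 1.96 normalised reads (0 to 4.09) in prenatal T muscle. In control muscle it averaged 2.93 ± 1.27 (1.08 to 3.94), so the size of its difference is poorly set. MIR17 in control ewes did not pass on the common scale (0.70, limma adjusted p = 0.100). It passed as higher in liver scaled to total miRNA reads (2.06, limma adjusted p = 1.58e-05) and to the total other than MIR133 (0.995, 0.0302). MIR19B, untested on the common scale, passed as higher in liver in both arms under both other scalings, at 1.99 to 2.71. It was near the floor in muscle, at 0.716 ± 0.933 normalised reads in prenatal T muscle and 0.720 ± 0.492 in control muscle.

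The other measured name of the lymphoid and myeloid list, MIR29B-1, was far less abundant than MIR150 and is also made outside blood cells. It averaged 36.6 ± 8.08 normalised reads in prenatal T livers and 34.6 ± 10.9 in control livers, and 23.5 ± 5.43 in prenatal T muscle and 23.8 ± 3.16 in control muscle (SD, n = 4 each). Between prenatal T and control its log2 fold change was 0.12 in liver (limma adjusted p = 0.959) and −0.043 in muscle (limma adjusted p = 0.936). Between liver and muscle on the common scale its log2 difference was −0.53 in prenatal T ewes (limma adjusted p = 0.157) and −0.74 in control ewes (limma adjusted p = 0.0520, or 0.0469 with the ewe as a block). Scaling to total miRNA reads moved the median log2 difference of all 76 miRNAs from 0.25 to 1.57. The direction of MIR29B-1 on that scale is not given here, so its direction is not settled.

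The names' neighbours were read from the sheep RefSeq annotation of assembly ARS-UI_Ramb_v3.0, since the sources used here name no build for the data. MIR16B lies inside SMC4, a condensin subunit gene, between TRIM59 and IFT80, and no other measured RNA lay within 50 kb. MIR150 lies near the ribosomal protein gene RPL13A, FCGRT, the neonatal Fc receptor gene, and FLT3LG, the gene of a haematopoietic growth factor. A long non-coding RNA gene, LOC121816549, is annotated within 50 kb of MIR150 and was not analysed here.

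Inside RPL13A, 4 small nucleolar RNAs were measured. LOC114118174 averaged 35.9 ± 8.64 normalised reads in prenatal T livers and 36.6 ± 11.3 in control livers, and 21.8 ± 8.14 in prenatal T muscle and 26.7 ± 3.73 in control muscle (SD, n = 4 each). LOC114118106 averaged 54.6 ± 29.3 in prenatal T livers and 92.8 ± 56.1 in control livers, and 9.62 ± 7.98 in prenatal T muscle and 5.93 ± 1.61 in control muscle. Prenatal T and control values of both overlapped in liver and in muscle, and no test was run on them. LOC114118175 averaged 6.57 ± 2.91 in prenatal T livers and 6.17 ± 3.72 in control livers, and 4.52 ± 2.36 in prenatal T muscle and 5.58 ± 2.94 in control muscle. LOC114118110 had at most 6 reads in any library.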

How the data were processed

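Total RNA was extracted with Trizol and small RNA libraries were made with a NEBNext kit, per the labels' protocols. Tools named in the submitters' processing notes are featureCounts 1.6.1, STAR 2.6.0c and cutadapt 3.2; no source used here gives their order, the read filters or the build. The authors deposited a normalised signal rather than raw counts: whole reads over 1 scaling factor for each library, set separately within each RNA class and tissue. All of 1432 miRNA values above 0 were whole reads within 0.001, which gave reads, shares and depth (Wilson 95% intervals: MIR150 took 0.0878% of reads, 0.0813% to 0.0947%, in liver 48 and 0.531%, 0.491% to 0.575%, in muscle 255; counting error only). For liver against muscle, reads were rescaled by median of ratios over 16 libraries. Replicate pairs differed by a chi-square of 24.2 to 292 per degree of freedom, so none was a duplicate.

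limma 3.58.1 in R 4.3.3 (variance trend) was run on log2(value + 1) for all miRNAs with a mean of at least 5, adjusted by Benjamini-Hochberg over all of them at 0.05. Fold changes are on that scale and understate those of low miRNAs. The fit was tested on simulated data. Single values were tested by exact permutation (scipy 1.17.1, Python 3.11.15). Liver and muscle were matched by ewe, from the labels, and deviations of matched libraries correlated at −0.27 to 0.45 over 68 miRNAs. The ratio test between tissues, the differences within ewes and the fit with the ewe as a block used this pairing. The main limma fits between tissues and of the interaction did not, and took the 16 libraries as separate samples. P-values within a tissue measure the spread between ewes. Those of the main fits between tissues and of the interaction measure the spread between libraries of a group. Those of the ratio test between tissues and of the block fit measure the spread between ewes of the liver minus muscle difference. Alternatives were other pseudocounts, filters and scalings, the ewe as a block, library number ranges and each library left out. The miRNAs described are the 2 members, the 3 most like each and the measured ones of 4 marker or family lists. Members and lists were chosen with earlier results of these data known. No miRNA sequence or coordinate is printed.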

Additional observations from a re-analysis of the deposited data

Results flagged for a closer look

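MIR150 in muscle of control ewe 98 stood at 1693 normalised reads, far from the other 3 control muscles at 1252, 1296 and 1307. The gap made up 0.875 of the group's range, above Dixon's 95% critical value for 4 samples. On the common scale, and as a share of miRNA reads, MIR150 in the same muscles was not flagged. Chance marks about 1 in 20 groups, and 28 groups of values were looked at. The cause was not tested.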

How the results depend on the processing

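No call for MIR150 between the tissues changed under any alternative run: its log2 difference ran from −2.73 to −1.28 in prenatal T ewes and from −2.91 to −1.34 in control ewes. With the ewe as a replicate block, which uses the pairing of liver and muscle, adjusted p was 9.69e-08 in prenatal T ewes and 5.62e-08 in control ewes for MIR150, and 0.0487 and 0.150 for MIR16B; counts were 53, 53 and 0 for the tissue difference in each arm and the interaction, and no call on MIR150 or MIR16B changed. Scaled to total miRNA reads, MIR16B between tissues turned to 0.74 in prenatal T ewes and 0.99 in control ewes; it missed the threshold at −0.28 in prenatal T ewes when scaled to the total other than MIR133, and passed at −0.80 in control ewes with the library number range as a covariate; leaving out 1 library each gave −0.63 to −0.33 in prenatal T ewes. Counts of miRNAs called between tissues ran from 39 to 68 in prenatal T ewes and 38 to 66 in control ewes; between prenatal T and control they stayed at 0. Uncalled differences changed sign: MIR150 in liver was 0.21 in the higher library number range and −0.26 to 0.079 with 1 library left out; MIR16B in muscle was 0.064 scaled to total miRNA reads and −0.16 to 0.092 with 1 left out; and the difference between tissues of the prenatal T effect ran from −0.033 to 0.32 for MIR150 and −0.26 to 0.041 for MIR16B. The muscle correlation reached r = 0.85 scaled to total reads, and the ratio difference was 2.06 in the 3 ewes of 1 range. The causes were not tested. The library range covariate across tissues, the ratio in 3 ewes and the correlations within a range were chosen after seeing the data. The count tests edgeR and DESeq2 were planned and not run. Whole reads were recovered from the normalised values, but a check of the unit did not accept them as counts. With 4 ewes a group, the widest prenatal T intervals were 0.603-fold to 1.19-fold (MIR16B, liver) and 0.644-fold to 1.35-fold (MIR150, liver).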
